A study of Mus musculus with 6 samples.

Results

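The genes described here are 9 genes of the beta-adrenergic and protein kinase A (PKA) pathway, named by symbol and read from the 43760 rows of a gene count table of 3T3-L1 cells. They are the beta-adrenergic receptors Adrb1 and Adrb3, the G protein gene Gnas, the PKA catalytic subunits Prkaca and Prkacb, and the PKA regulatory subunits Prkar1a, Prkar1b, Prkar2a and Prkar2b. 3T3-L1 cells are mouse fibroblasts, an established line that can be driven to become fat cells, and all samples carry the genotype label WT. Total RNA was sequenced from cells after adipogenic differentiation (day 7, 3 libraries) and from cells harvested without differentiation (day 0, 3 libraries). The cocktail held IBMX, insulin, dexamethasone and rosiglitazone (spelled roziglitazone in the labels). IBMX blocks the enzymes that break down cAMP, and the labels do not say for how many days each agent was given.

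In fat cells, catecholamines bind beta-adrenergic receptors, whose G protein Gs, with the alpha subunit encoded by Gnas, switches on adenylyl cyclase to make cAMP. PKA rests as a complex of regulatory and catalytic subunits, and cAMP bound to the regulatory subunits lets the catalytic subunits phosphorylate their targets. In adipocytes those targets include perilipin 1 and hormone-sensitive lipase, which control the release of fatty acids from stored fat. The regulatory subunits come in type I (Prkar1a, Prkar1b) and type II (Prkar2a, Prkar2b) forms, which differ in where they are held in the cell and in how they inhibit the kinase. Prkar2b encodes the form known to prevail in mouse white fat.

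Of the 9 genes, 8 passed the filter on low counts and Prkar1b did not. At day 7 relative to day 0, Adrb3, Prkaca, Prkar2a and Prkar2b rose, and Prkacb and Prkar1a fell. Adrb1 and Gnas did not pass the threshold (edgeR adjusted p at or above 0.05; quasi-likelihood test with Benjamini-Hochberg adjustment over all 12354 genes tested). Among all tested genes 30.8% rose, 29.2% fell and 60.0% changed in either direction, which is the background for these counts. The groups did not overlap for 7 of the 8 tested genes, against 68.3% of all tested genes. Changes of at least 2-fold that passed the threshold were seen for 33.7% of all tested genes, and here for Adrb3, Prkaca, Prkar2a and Prkar2b. Of all tested genes 3802 rose and 3611 fell, with a median log2 fold change of 0.02. With total-count scaling 2355 rose and 4025 fell, with a median of -0.21, and each of the 8 genes kept its direction and its side of the threshold.

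The libraries held between 7655822 and 16987076 counts, and no pair within a group agreed within counting error (chi-square per gene 6.71 or more). The day 7 columns carry no replicate number of their own and are told apart by their place in the table. Levels are CPM, each library's counts brought to a common scale by TMM; means are given ± SD of 3 libraries and log2 fold changes ± SE. All 10 adipocyte markers rose, among them Pparg, Fabp4, Adipoq and Slc2a4, with summed levels of 12600 to 15600 CPM at day 7 and 533 to 568 CPM at day 0. Adipoq, Plin1, Slc2a4, Cfd and Cidec had at most 2 counts over the day 0 libraries. They passed the filter through their day 7 libraries alone and could only be called as risen. Of 9 fibroblast markers tested, 8 fell, with sums of 4230 to 6520 CPM at day 7 and 13000 to 15000 CPM at day 0. Of the macrophage, endothelial and skeletal muscle markers none passed the filter: their sums were 0.815 to 1.76, 0.623 to 1.42 and 0 to 0.283 CPM at day 7 and 0.621 to 1.49, 0.263 to 0.684 and 0 to 0.186 CPM at day 0. C1qa, C1qb, Emcn, Myod1, Myog and Myh3 had no count, and the listed markers Adgre1 and Ckm matched no row. The days differ at once in differentiation, in exposure to the cocktail and in culture time, and these cannot be told apart. Separate cultures are not mentioned in the labels, and p-values then reflect the spread among these samples alone, which may be technical. In bulk RNA, fewer cells of a type and less RNA per cell cannot be told apart either.

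Of the 9 genes, Adrb3 showed the largest relative difference between the days. It encodes the beta-3 receptor, the beta-adrenergic receptor most restricted to fat in rodents, and lies on chromosome 8 at 27225776 to 27250616 on the minus strand (GRCm38, GENCODE M21). Its levels were 8.50, 10.8 and 50.1 CPM in the day 7 columns, in table order, against 0 in each day 0 library. The underlying counts were 150, 106 and 369 at day 7 and 0, 0 and 0 at day 0. With a floor of 3 counts over the day 0 group, the day 7 level was at least 236-fold higher (edgeR adjusted p = 0.0027). A count of 0 allows at most 0.263, 0.186 and 0.250 CPM in the day 0 libraries, for counting error only. Adrb3 therefore passed the filter through its day 7 libraries alone and could only be called as risen.

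The third day 7 column stood apart for Adrb3, with 5.19 times the mean of the other day 7 columns. Without it the bound was at least 123-fold, and the call held. Of the 10 adipocyte markers, 6 were also highest in that column, and their sum without Lpl, the most abundant, was 6770, 4310 and 7230 CPM in the day 7 columns. The fibroblast markers Pdgfra, Thy1, Fn1 and Dlk1 were highest there too, while the fibroblast sum was 4230, 6520 and 5160 CPM. The part of these marker differences in the Adrb3 level was not tested. For the other genes the third column ran from 0.797 times the mean of the first and second columns for Prkar1a to 1.49 times for Adrb1, leaving out Prkar1b with its few counts. An antisense gene, Gm45470, overlaps 839 bases of Adrb3 exons, and whether the authors' counting used strand is not given in the sources used here.

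Adrb1, which encodes the beta-1 receptor and lies on chromosome 19 at 56722199 to 56733113, was a low transcript on both days. It had 1.02, 1.53 and 1.9 CPM at day 7, against 1.05, 0.435 and 1.92 CPM at day 0, so the groups overlapped. In counts this was 18, 15 and 14 at day 7 and 12, 7 and 23 at day 0. The log2 fold change was 0.36 ± 0.54 (95% interval -0.89 to 1.62; edgeR adjusted p = 0.59). The ratio of summed counts, scaled for library size, was 1.27 with a 95% counting interval of 0.819 to 1.97. Neither interval excludes a change in either direction. The log2 fold change was -0.06 without day 0 replicate 2, its lowest library, and 0.98 without day 0 replicate 3, its highest; neither fit passed the threshold.

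Per kilobase of exon, Adrb3 lay above Adrb1 in each day 7 library and below it in each day 0 library. At day 7 Adrb3 stood at 2.52, 3.20 and 14.8 CPM per kilobase and Adrb1 at 0.302, 0.451 and 0.562 CPM per kilobase. At day 0 Adrb3 had no count and Adrb1 stood at 0.311, 0.129 and 0.567 CPM per kilobase. The coding sequences of the pair share 67.7% of aligned bases, and neither gene had fractional counts in any library, which would be a sign of reads divided between copies.

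Gnas, the alpha subunit gene of Gs, was the most abundant of the 9 genes in CPM on both days. It had 430, 427 and 367 CPM at day 7, against 486, 478 and 484 CPM at day 0. Every day 7 library lay below every day 0 library, but the log2 fold change of -0.24 ± 0.13 (95% interval -0.54 to 0.06) did not pass the threshold (edgeR adjusted p = 0.14). With DESeq2 it did, at -0.26 with an adjusted p of 0.047. The gene spans chromosome 2 at 174284320 to 174346744 on the plus strand and has 24 annotated transcripts from several promoters, so the row sums products other than the Gs alpha subunit. The overlapping antisense genes Nespas and Gm20721 had at most 14 counts in a library.

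**Figure D1:**
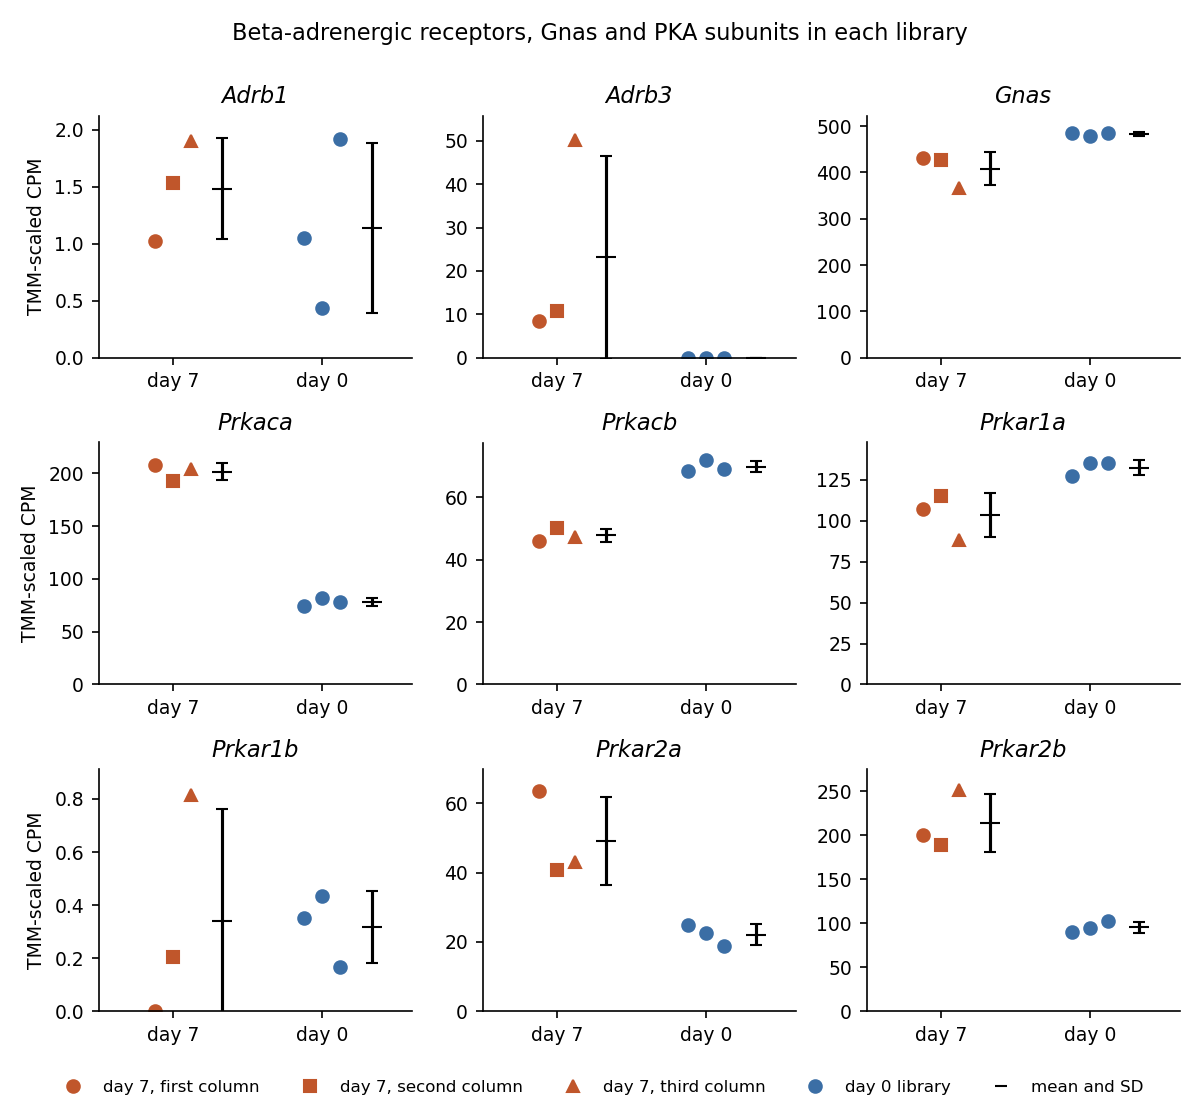
TMM-scaled CPM of the 9 genes in each library, day 7 left of day 0, with each panel on its own linear axis from 0. Horizontal ticks with bars are the mean and SD of 3 libraries per day, drawn down to 0 where the SD exceeds the mean. The groups are apart for Adrb3, Gnas, Prkaca, Prkacb, Prkar1a, Prkar2a and Prkar2b and overlap for Adrb1 and Prkar1b, and the third day 7 column of Adrb3, at 50.1 CPM, is far above the others.

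The PKA catalytic subunits moved in opposite directions. Prkaca encodes the widely expressed catalytic subunit alpha and lies on chromosome 8 at 83972993 to 83996443 on the plus strand. It had 208, 193 and 204 CPM at day 7, against 74.5, 81.5 and 78.2 CPM at day 0. The day 7 libraries lay close together and far above those of day 0, a 2.58-fold rise (log2 fold change 1.37 ± 0.11; edgeR adjusted p = 3.3e-05). Over all alternatives tried, its log2 fold change ran from 1.14 to 1.4 and its adjusted p from 3.7e-31 to 0.00082.

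Prkacb, which encodes catalytic subunit beta and lies on chromosome 3 at 146729574 to 146812990 on the minus strand, had 45.9, 50 and 47.3 CPM at day 7. At day 0 it had 68.5, 71.8 and 69.1 CPM. The groups were apart with little spread, and Prkacb was 1.46-fold lower at day 7 (log2 fold change -0.55 ± 0.09; edgeR adjusted p = 0.0012). The coding sequences of Prkaca and Prkacb share 80.8% of aligned bases, and no library held a fractional count for either gene.

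Because both catalytic subunits fill the same place in the complex, their levels were also set against each other per kilobase of annotated exon. Prkaca made up 94.1%, 93.1% and 93.8% of the catalytic sum at day 7, against 79.3%, 80% and 80% at day 0. The difference of 13.9 percentage points had an exact two-sided permutation p of 0.1, the smallest that 3 against 3 libraries can give. Its size depends on the length used: with the longest annotated transcript it was 20.9 points and with no length scaling 28.1 points. The catalytic sum itself was 88.8, 83.1 and 87.4 CPM per kilobase at day 7, against 37.7, 40.9 and 39.3 at day 0.

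Among the regulatory subunits the type II genes rose and Prkar1a fell. Type II subunits carry a serine that PKA phosphorylates in the inhibitor site, the stretch that occupies the active site of the catalytic subunit. Type I subunits have an alanine or glycine at that place and act as pseudosubstrates. The coding sequence around that place is shown from the GENCODE M21 transcripts, with the codon of the phosphorylated residue or its substitute in capitals, because it is a known difference in sequence between the type II and the type I genes.
Prkar2a: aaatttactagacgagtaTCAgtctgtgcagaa
Prkar2b: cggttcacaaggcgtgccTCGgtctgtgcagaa
Prkar1a: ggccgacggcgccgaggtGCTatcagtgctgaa
Prkar1b: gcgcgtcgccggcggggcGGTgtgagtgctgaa
The capitals read TCA and TCG, both serine, in Prkar2a and Prkar2b, GCT, alanine, in Prkar1a, and GGT, glycine, in Prkar1b.

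Prkar2b, on chromosome 12 at 31958476 to 32061296 on the minus strand, had 200, 189 and 251 CPM at day 7, against 89.6, 94.0 and 102 CPM at day 0. The lowest day 7 library was well above the highest day 0 library. The rise was 2.25-fold (log2 fold change 1.17 ± 0.14; 95% interval 0.84 to 1.5; edgeR adjusted p = 0.00027).

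Prkar2a, its widely expressed type II relative on chromosome 9 at 108689314 to 108750436, had 63.6, 40.7 and 43.0 CPM at day 7, against 24.8, 22.6 and 18.9 CPM at day 0. The first day 7 column was the highest and the groups did not overlap. Prkar2a rose 2.23-fold (log2 fold change 1.16 ± 0.19; 95% interval 0.71 to 1.61; edgeR adjusted p = 0.0014). The intervals of Prkar2a and Prkar2b largely cover each other.

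Prkar1a, the main type I subunit gene, on chromosome 11 at 109649405 to 109669656, had 107, 115 and 88.5 CPM at day 7, against 127, 135 and 135 CPM at day 0. The groups were apart, but the day 7 libraries were spread. It was 1.28-fold lower at day 7 (log2 fold change -0.36 ± 0.13; 95% interval -0.65 to -0.07; edgeR adjusted p = 0.039). This call was lost when day 0 replicate 1, 2 or 3 was left out (adjusted p = 0.078, 0.11 and 0.10), without the first day 7 column (0.052) and with no filter on low counts (0.057).

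Prkar1b, known mainly from the nervous system and lying on chromosome 5 at 139017306 to 139150001, was near the limit of detection. Its counts were 0, 2 and 6 at day 7, against 4, 7 and 2 at day 0, and the groups overlapped. The ratio of summed counts was 0.698 with a 95% counting interval of 0.251 to 1.82. It shares 341 bases of exon with Gm15672 on the same strand, so part of these few counts cannot be assigned with certainty.

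**Figure D2:**
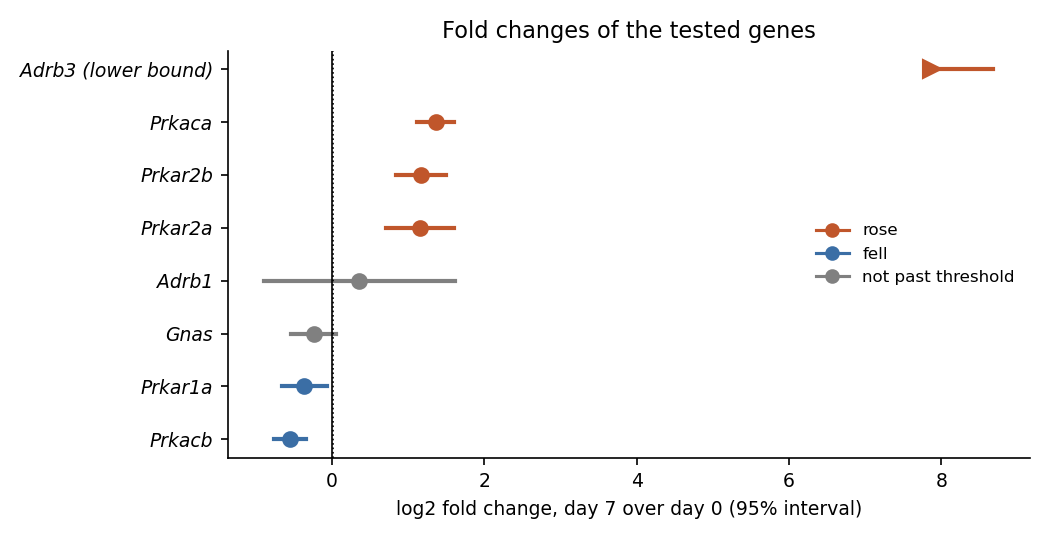
Log2 fold change of the 8 tested genes, day 7 over day 0, with 95% intervals from the edgeR fit; the dotted line is the median of all tested genes, 0.02. Adrb3, with no count at day 0, is drawn as a lower bound for day 0 counting error only. Prkaca, Prkar2b and Prkar2a lie to the right of 0 and Prkacb and Prkar1a to the left, while the intervals of Adrb1 and Gnas cross 0.

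Per kilobase, the make-up of the regulatory subunit transcripts differed between the days. Prkar2b made up 61.2%, 61.1% and 71.5% of the regulatory sum at day 7, against 42.3%, 42.4% and 44.8% at day 0. Prkar1a made up 27.7%, 31.3% and 21.3% at day 7, against 50.8%, 51.6% and 50.3% at day 0. Prkar2b was thus the leading regulatory transcript in each day 7 library and Prkar1a in each day 0 library.

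Prkar2a held a smaller part, with 11.1%, 7.52% and 7.01% at day 7 and 6.71%, 5.82% and 4.77% at day 0. Its difference of 2.79 points was 1.5 without the first day 7 column and 4.53 with no length scaling. Prkar1b held at most 0.222% in any library. Type II genes together took 73.1% ± 5.0 at day 7 and 48.9% ± 0.705 at day 0 (SD, n = 3 each; exact two-sided permutation p = 0.1). Leaving out the third day 7 column or any other single library, or changing the gene length, left the type II difference between 21.5 and 26.5 percentage points.

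In absolute terms the type II sum was 66.2 ± 8.75 CPM per kilobase at day 7 and 29.5 ± 1.18 at day 0. The type I sum was 24.0 ± 3.04 CPM per kilobase at day 7 and 30.8 ± 1.04 at day 0. The ratio of regulatory to catalytic transcripts per kilobase was 1.01, 1.02 and 1.10 at day 7, against 1.54, 1.48 and 1.58 at day 0. No day 7 library came near a day 0 library in this ratio (difference -0.489; exact two-sided permutation p = 0.1). The difference was -0.368 with the longest transcript and -0.221 with no length scaling, and it says nothing of protein amounts.

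**Figure D3:**
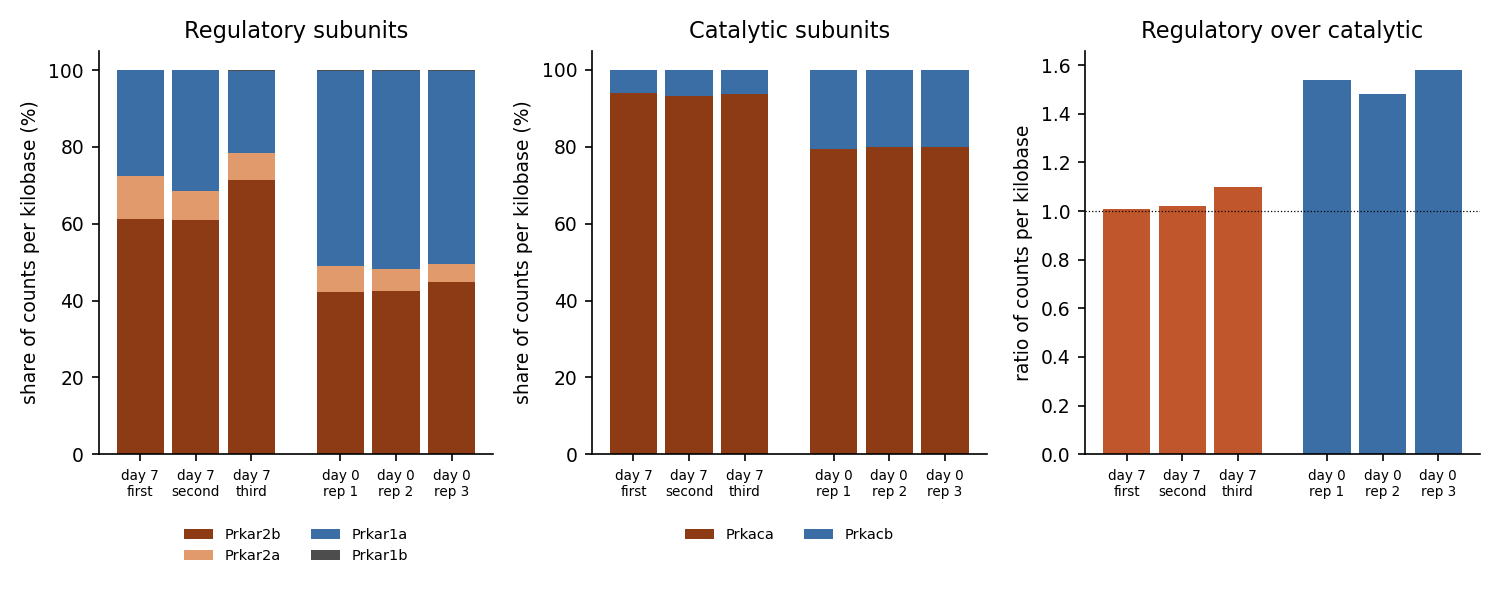
Share of each regulatory subunit (left) and each catalytic subunit (middle) in counts per kilobase of exon, in percent, and the ratio of regulatory to catalytic sums (right), for each library with day 7 left of day 0. Prkar2b takes over 60% of the regulatory bar in each day 7 library, and the ratio is 1.01 to 1.10 at day 7 and 1.48 to 1.58 at day 0; the dotted line marks 1.

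The order of the genes by level per kilobase differed between the days. At day 7 it ran Prkaca (81.0 ± 3.21 CPM per kilobase), Prkar2b (58.5 ± 9.05), Gnas (36.5 ± 3.19), Prkar1a (24.0 ± 3.14), Prkar2a (7.7 ± 1.97), Adrb3 (6.85 ± 6.93), Prkacb (5.44 ± 0.236), Adrb1 (0.438 ± 0.131) and Prkar1b (0.0891 ± 0.111). The libraries of Adrb3 overlapped those of Prkar2a and of Prkacb, and other neighbours in this order did not overlap. At day 0 it ran Gnas (43.2 ± 0.373 CPM per kilobase), Prkaca (31.4 ± 1.41), Prkar1a (30.7 ± 1.05), Prkar2b (26.0 ± 1.66), Prkacb (7.96 ± 0.203), Prkar2a (3.46 ± 0.473), Adrb1 (0.336 ± 0.220) and Prkar1b (0.0833 ± 0.036), with Adrb3 at 0 counts. Prkaca and Prkar1a overlapped at day 0. The 11.2 kilobases of annotated Gnas exons are not all in 1 transcript, so its level per kilobase is understated. Per kilobase of the longest transcript, a length added after the first order was seen, Gnas led at day 7 as well, with 103 ± 9.05 CPM per kilobase against 88.6 ± 3.51 for Prkaca. Prkacb then stood above Prkar2a and Adrb3 at day 7 (11 ± 0.476 against 9.89 ± 2.54 and 8.28 ± 8.37), with libraries that overlapped those of both. At day 0 Prkar1a then stood above Prkaca (37.7 ± 1.29 against 34.3 ± 1.54).

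Promoter windows are shown for the catalytic and regulatory genes that moved apart, Prkaca and Prkar2b, which rose, and Prkacb and Prkar1a, which fell. Each runs from 250 bases before to 50 after a start (RefSeq, GRCm38.p6) and is the window nearest the start of a principal GENCODE transcript. Of the 9 genes 8 had a window. Capitals mark matches on either strand to any of 8 motifs. These were the cAMP response element TGACGTCA and its core TGACG, the CCAAT box, the GC box GGGCGG, the E-box CACGTG and the TATA box TATAAA. The palindrome of C/EBP factors TTGCGCAA and the PPAR element core AGGTCA were searched too. The core is contained in the full element, and adjoining matches run together.
Prkaca, chr8:83972728-83973027, plus strand: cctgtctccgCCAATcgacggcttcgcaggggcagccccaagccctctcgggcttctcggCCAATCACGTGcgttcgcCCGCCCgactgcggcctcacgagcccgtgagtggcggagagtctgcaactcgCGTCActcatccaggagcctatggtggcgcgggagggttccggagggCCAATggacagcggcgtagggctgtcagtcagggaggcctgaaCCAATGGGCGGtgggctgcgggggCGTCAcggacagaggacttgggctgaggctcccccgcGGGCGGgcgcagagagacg
Prkar2b, chr12:32061228-32061527, minus strand: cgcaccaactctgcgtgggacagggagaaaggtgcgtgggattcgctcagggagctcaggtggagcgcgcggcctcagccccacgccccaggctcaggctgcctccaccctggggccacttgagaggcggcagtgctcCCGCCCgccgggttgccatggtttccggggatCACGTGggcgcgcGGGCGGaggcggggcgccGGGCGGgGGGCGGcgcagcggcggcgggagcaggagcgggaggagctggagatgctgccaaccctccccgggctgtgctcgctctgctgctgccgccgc
Prkacb, chr3:146812897-146813196, minus strand: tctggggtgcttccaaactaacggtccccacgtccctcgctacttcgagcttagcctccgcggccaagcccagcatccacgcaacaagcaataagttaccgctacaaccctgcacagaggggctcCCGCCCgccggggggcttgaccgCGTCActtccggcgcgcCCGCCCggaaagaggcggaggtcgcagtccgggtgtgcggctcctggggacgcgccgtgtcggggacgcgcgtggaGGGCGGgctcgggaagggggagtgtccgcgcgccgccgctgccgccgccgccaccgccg
Prkar1a, chr11:109650699-109650998, plus strand: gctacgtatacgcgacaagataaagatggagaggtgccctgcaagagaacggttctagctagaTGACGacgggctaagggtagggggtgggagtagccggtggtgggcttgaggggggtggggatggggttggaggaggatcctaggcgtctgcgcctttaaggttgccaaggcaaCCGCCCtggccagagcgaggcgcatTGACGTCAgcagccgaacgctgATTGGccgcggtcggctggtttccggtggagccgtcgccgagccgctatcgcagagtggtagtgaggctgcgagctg
A full TGACGTCA was found in the Prkar1a window, 49 bases before the start, and in none of the other 7. It is present in 1.79% of 32851 mouse windows of the same length.

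The core TGACG, found in 20.8% of all windows, was present in the windows of Adrb1, Gnas, Prkaca, Prkacb, Prkar1a and Prkar2a. CACGTG, found in 7.15% of windows, was present in those of Prkaca and Prkar2b. GGGCGG, found in 35.7% of windows, was present 4 times for Prkar2b, 3 times each for Prkaca and Prkacb, and once each for Prkar1a and Adrb1. CCAAT, found in 37.4%, occurred 4 times in the Prkaca window and once each in those of Adrb1, Gnas, Prkar1a and Prkar1b. TATAAA (13.6% of windows) was found for Gnas, and none of the 8 windows held the C/EBP palindrome (present in 0.183% of windows) or the PPAR element core (16.3%). A match in these letters is a description and not a bound site.

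For each member that changed at least 2-fold, the genes with the most similar profile were looked up among 10745 protein-coding genes whose mean reached 1 CPM. Likeness is the root mean square difference of centred log2 CPM over the 6 libraries. Prkaca was closest to Brwd3 and Atp6v0a1 (0.04 each) and Mtor (0.05), with Mtor at 70.2 ± 5.94 CPM at day 7 and 27.4 ± 0.729 at day 0. Prkar2b was closest to Trappc6b (0.06), St3gal3 and Elmod3 (0.07 each), and Prkar2a to Hps3, Glud1 and Urb1 (0.11 each). Adrb3 was closest to Pnpla3 (0.41), Ffar2 (0.46) and Apoc1 (0.51). Pnpla3 stood at 35.4 ± 30.2 CPM at day 7 and 0.0414 ± 0.0718 at day 0, with a day 7 spread as wide as that of Adrb3.

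The other genes of the pathway were read from 12 lists, of which 92 genes were tested and 65 changed, against 60.0% of all genes tested. The background for the counts of each list by direction is 30.8% of all tested genes that rose and 29.2% that fell. No list was tested as a set. Upstream of PKA, 2 of 6 listed alpha-adrenergic receptor genes matched a row, and the others are not analysed here. Adra2a, which couples to the inhibitory G protein, fell to 1.09 ± 0.629 CPM at day 7, against 5.20 ± 0.313 at day 0 (log2 fold change -2.17 ± 0.37; edgeR adjusted p = 0.0016). Adra1d had 11.2 ± 1.17 CPM at day 7 and 9.35 ± 1.58 at day 0 (edgeR adjusted p = 0.21).

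A list of 21 other receptors that act through cAMP in fat cells and 3 receptor accessory genes (Ramp1, Ramp2 and Ramp3) held 13 tested genes, all receptors, of which 7 rose and 4 fell. The 7 were Adora1, Tshr, Mc5r, Hcar2, Ffar2, Ffar4 and Adcyap1r1, and each had at most 2 counts over the day 0 libraries, so they were tested through their day 7 libraries alone. Adora1, the adenosine receptor that lowers cAMP in fat cells, had 12.5, 3.05 and 18.1 CPM at day 7 and no count at day 0. Its summed level was at least 145-fold higher, and at least 120-fold without the third day 7 column, for day 0 counting error only. The fitted log2 fold change of Adora1 was 10.11 ± 1.46 (95% interval 6.5 to 13.72). Hcar2, the receptor through which niacin lowers lipolysis, had 762 counts at day 7 and 1 at day 0, a ratio of 864 (95% counting interval 155 to 34200). The median log2 fold change of the list was 6.34, the value of Adcyap1r1, or 4.53 with genes that had no count at day 0 at their bound. As 7 of the 13 tested genes entered through day 7 alone, the median fell on the lowest of their values. It is thus set by the filter and does not summarise the list. The median also moved with single libraries. Leaving out each in turn, it ran from 2.35 without the third day 7 column to 7.4 without day 0 replicate 2. It was 2.77 without day 0 replicate 1, 5.91 without day 0 replicate 3, 3.47 without the first day 7 column and 3.02 without the second, with 13 or 14 genes tested.

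Those that fell included Npy1r, a receptor for neuropeptide Y, at 1.52 ± 0.918 CPM at day 7 and 21.2 ± 1.4 at day 0 (log2 fold change -3.90 ± 0.31; edgeR adjusted p = 3.9e-05). Adora2b, an adenosine receptor coupled to Gs, had 0, 0 and 0.543 CPM at day 7 and 2.54, 3.11 and 3.17 CPM at day 0. Adora2b passed the filter through its day 0 libraries alone and could only be called as fallen. Its fitted log2 fold change was -4.50, and -3.58 without the first day 7 column; without the third no day 7 count is left. Ptger4 and Ptgir, prostaglandin receptors coupled to Gs, fell with log2 fold changes of -2.32 and -1.41. The call on Ptgir was lost when any day 0 library or the first or second day 7 column was left out, and without the third its log2 fold change was -2.14 (edgeR adjusted p = 0.00089). Calcrl did not pass at -0.97 (edgeR adjusted p = 0.12) but did at -1.86 without the third day 7 column, where it stood at 47.4 CPM against 11.6 and 14.1 in the others.

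Of the adenylyl cyclases, 4 were tested. Adcy9 rose 2.63-fold, with 20.6 ± 3.03 CPM at day 7 and 7.87 ± 0.701 at day 0 (edgeR adjusted p = 0.00019), and Adcy7 fell at low levels. Adcy7 stood at 0.366 ± 0.310 CPM at day 7 and 1.65 ± 0.321 at day 0 (log2 fold change -2.28, running to -1.65 without the first day 7 column and -3.25 without the second). With 2, 7 and 2 counts at day 7, Adcy7 passed the filter through its day 0 libraries alone and could only be called as fallen. Adcy6, the most abundant in CPM, had 90.7 ± 16.3 CPM at day 7 and 96.1 ± 0.867 at day 0 (edgeR adjusted p = 0.62).

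Of 14 other G protein subunit genes tested, 10 fell and 1 rose, against 29.2% and 30.8% of all tested genes, with a median log2 fold change of -0.72. Of 11 beta and gamma subunit genes, whose products pair with alpha subunits such as that of Gnas, 7 fell and 1 rose, and their sum was 436 to 518 CPM at day 7 and 800 to 836 CPM at day 0. The other 3 encode alpha subunits of other G proteins, Gnai2, Gnai3 and Gnao1, and all fell, with sums of 177 to 209 CPM at day 7 and 392 to 418 CPM at day 0. Gnai2, the alpha subunit of an inhibitory G protein, was 2.61-fold lower, at 98.8 ± 15.9 CPM at day 7 and 258 ± 6.22 at day 0 (edgeR adjusted p = 0.00013). Gnb4, a beta subunit, showed the lowest log2 fold change, -2.86 ± 0.37 (0.698 ± 0.369 CPM at day 7, 5.49 ± 1.44 at day 0). With 16, 9 and 2 counts at day 7, Gnb4 would not have passed the filter through those libraries. Gng8, with 4, 4 and 1 counts at day 7, passed through its day 0 libraries alone and could only be called as fallen. Both are among the 10 that fell. Gnb5, a beta subunit that pairs with regulators of G protein signalling, rose 5.44-fold to 6.95 ± 0.341 CPM at day 7, against 1.27 ± 0.225 at day 0 (edgeR adjusted p = 4.5e-05). The calls on Gnao1 and Gnb2, at log2 fold changes of -0.32 and -0.36, were each lost when some single libraries were left out.

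Of 6 receptor kinases and arrestins, which end receptor signalling, 2 rose and 1 fell. Arrb1 rose 2.09-fold, with 41.2 ± 4.26 CPM at day 7 and 19.8 ± 2.13 at day 0 (edgeR adjusted p = 0.00026). Grk5 was 2.14-fold lower at day 7 (11.3 ± 2.81 CPM, against 24.4 ± 1.44 at day 0), with fractional counts in 4 libraries. Arrb2 passed narrowly at a log2 fold change of 0.40 (edgeR adjusted p = 0.043), lost when any library other than the third day 7 column was left out, and lost with total-count scaling at 0.16.

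Downstream, among proteins that bind the catalytic subunits, Pkia, a PKA inhibitor peptide gene, was 4.40-fold lower, at 1.12 ± 0.289 CPM at day 7 and 4.80 ± 1.16 at day 0 (edgeR adjusted p = 0.00061). Its relative Pkig rose 1.64-fold to 13.3 ± 1.23 CPM at day 7, against 8.15 ± 1.17 at day 0 (edgeR adjusted p = 0.006), but with total-count scaling the adjusted p was 0.084. The PKA-like kinase gene Prkx had 5.88 ± 1.51 CPM at day 7 and 8.50 ± 1.27 at day 0 (edgeR adjusted p = 0.084), and passed at a log2 fold change of -0.75 without the first day 7 column.

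A-kinase anchoring proteins hold PKA at its place in the cell by the regulatory subunits. Of 17 tested, 6 rose and 4 fell, near the 30.8% and 29.2% of all tested genes, and the median log2 fold change was 0.17. Opa1, a mitochondrial protein that also anchors PKA on lipid droplets, rose 3.07-fold to 129 ± 20.8 CPM at day 7, against 42.0 ± 3.65 at day 0 (edgeR adjusted p = 6.6e-05). Akap1, which anchors PKA at the outer mitochondrial membrane, rose 2.44-fold to 65.8 ± 12.8 CPM at day 7, against 27.0 ± 1.62 at day 0.

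Akap8l and Akap9 also rose past 2-fold. Akap7 and Akap8 rose by less, with calls that were lost when some single libraries were left out. Both calls were also lost with total-count scaling, at log2 fold changes of 0.40 for Akap7 and 0.20 for Akap8. Rab32, a small GTPase with anchoring activity, showed the lowest value, 3.55-fold lower at 7.47 ± 3.09 CPM at day 7, against 25.7 ± 2.86 at day 0 (edgeR adjusted p = 0.00081). Akap2, with fractional counts in 6 libraries, Akap6 and Ezr fell too, and the calls on Akap6 and Ezr were lost when single day 0 libraries were left out.

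Of 9 phosphodiesterases tested, which break down cAMP, 3 rose and 2 fell, against 30.8% and 29.2% of all tested genes. Pde3b, the form through which insulin lowers cAMP in fat cells, had 232, 225 and 204 CPM at day 7 and 2.19, 1.49 and 2.25 CPM at day 0 (log2 fold change 6.81 ± 0.19; edgeR adjusted p = 2.5e-06). Pde4d had 41.5, 48.1 and 11.9 CPM at day 7, so the third column lay within the day 0 range of 10.9 to 12.7 CPM. The Pde4d call (log2 fold change 1.54; edgeR adjusted p = 0.016) was lost when any single day 0 library or the second day 7 column was left out. Pde1a rose 1.48-fold, not with total-count scaling, and Pde1b and Pde4a were 2.64-fold and 1.82-fold lower.

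Of the other cAMP effectors, 2 were tested and both fell. Rapgef3, which encodes the cAMP-activated exchange factor EPAC1, had 1.08, 1.73 and 5.43 CPM at day 7 and 22.0, 21.3 and 22.7 CPM at day 0. Its log2 fold change was -3.16 ± 0.48 (edgeR adjusted p = 0.00083), and -4.03 without the third day 7 column. Rapgef2 fell to 16.8 ± 4.07 CPM at day 7, against 25.5 ± 3.08 at day 0 (edgeR adjusted p = 0.028), a call lost without day 0 replicate 1 or 2 or the first day 7 column.

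Of 7 CREB family and coactivator genes, which carry the PKA signal to transcription, 3 fell and 1 rose, all by small amounts. Creb1 was 1.33-fold lower (34.3 ± 1.12 CPM at day 7, 45.7 ± 2.23 at day 0; edgeR adjusted p = 0.0056). Crtc1 showed the lowest log2 fold change, -0.56 ± 0.12, and Crtc2, the coactivator best known from liver, the highest, 0.44 ± 0.11. The calls on Crtc2 and Atf1 were lost without some single day 0 libraries, and that on Crtc2 also with total-count scaling.

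Of 13 genes known to be induced by cAMP through CREB, 9 were tested, 7 rose and 1 fell, against 30.8% and 29.2% of all tested genes. Their median log2 fold change was 1.78. Pck1, which in fat cells serves glycerol synthesis, had 500 counts at day 7 and 0 at day 0, at least 189-fold higher, and passed the filter through its day 7 libraries alone. Fos, Fosb and Dusp1 also respond to many other stimuli and differed widely between the day 7 columns. Fos had 86.8, 15.2 and 128 CPM at day 7 and 13.5, 14.9 and 12.5 CPM at day 0, so the second column lay just above the highest day 0 library. Fosb, at 4.27 CPM in the second day 7 column, overlapped day 0, and its call was lost in 5 of the 6 fits without 1 library. Nr4a2, which fell (log2 fold change -1.36; edgeR adjusted p = 0.03), and Nr4a1, at 1.71 and 1.11 without the third day 7 column, also depended on single libraries. Sik1, the most abundant of the list in mean CPM on both days, did not pass (log2 fold change -0.43; edgeR adjusted p = 0.14). It fell with total-count scaling (-0.68) and without the third day 7 column (-0.60). Nr4a3, Areg, Dio2 and Ucp1 were not tested, with at most 7 counts over a day.

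All 6 tested genes of PKA-regulated lipolysis rose, against 30.8% of all tested genes, with a median log2 fold change of 6.08. The smallest fitted change was that of Abhd5, the coactivator that perilipin 1 releases when PKA phosphorylates it, at 112 ± 49.3 CPM at day 7 and 23.8 ± 0.712 at day 0 (log2 fold change 2.23 ± 0.29; edgeR adjusted p = 0.00036). Plin1, which encodes perilipin 1, had 12118 counts at day 7 and 1 at day 0, and passed the filter through its day 7 libraries alone. G0s2, with 4, 7 and 3 counts at day 0, passed that way too. Mgll, with 14, 15 and 8 counts at day 0, would not have passed through those libraries alone. The count of 6 and the median are therefore partly set by the filter. Lipe, the hormone-sensitive lipase gene, had 621, 410 and 474 CPM at day 7 and 8.42, 8.51 and 11 CPM at day 0. Plin1 and Lipe are also on the adipocyte marker list, so this count and that of the markers share genes.

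**Figure D4:**
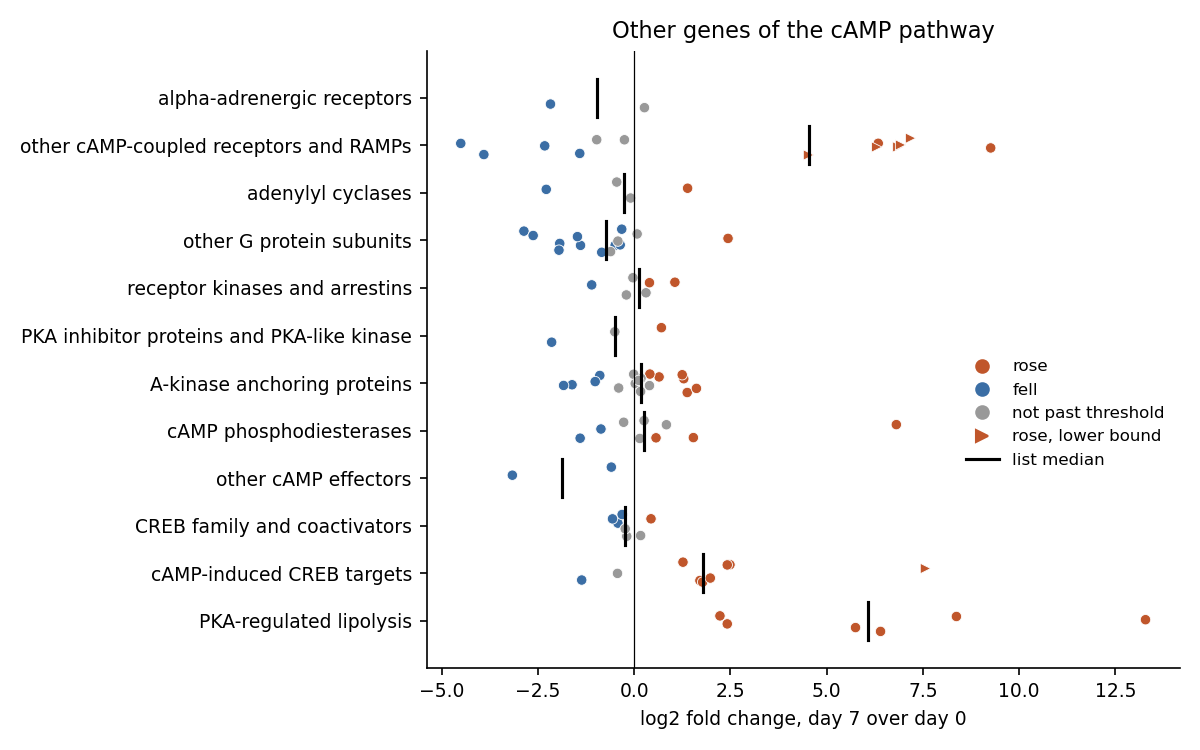
Log2 fold change, day 7 over day 0, of the tested genes of 12 pathway lists, 1 point per gene, with the list median as a black bar; triangles are lower bounds for genes with no count at day 0. All 6 lipolysis genes lie to the right of 0, and 10 of 14 other G protein subunit genes fell.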

How the data were processed

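The authors deposited 1 table of estimated counts, 1 value for each gene in each library and unscaled; that unit was read from the values. STAR 2.7.10a, Salmon 1.9.0, Trim Galore 0.6.7 and GRCm38 are named per the submitters' processing notes; not given in the sources used here are their roles and the annotation release. Libraries came from the Illumina Stranded Total RNA Prep and a NovaSeq instrument, per the labels' protocols. Of the table, 198 rows share 85 names and were kept apart, and 10 columns of other values were not used. In the header, each of the 3 day 7 columns has replicate number 1.

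Counts were rounded, filtered with filterByExpr (minimum count 10, minimum total 15), scaled by TMM and tested with edgeR 4.0.16 (R 4.3.3; quasi-likelihood, group as the only factor; biological coefficient of variation 0.186), with Benjamini-Hochberg adjustment at 0.05. On simulated data of 12354 genes the script recovered 50 of 100 changes of 2-fold and 86 of 100 of 4-fold, with 8 false calls. Changes of 2-fold were thus often missed there. Only those genes were changed in the simulation, while 60.0% of tested genes were called in the data. The adjustment was therefore stricter in the simulation, and its recovery does not give the sensitivity of the real fit. Libraries of 7655822 to 16987076 counts limit precision for genes of a few CPM. Counting intervals and floors cover counting error only, since no molecular identifiers are mentioned. Intervals of log2 fold changes come from the edgeR fit and also reflect the spread among libraries. Fractional means more than 0.01 from a whole number. Exon lengths, overlaps and coding sequences come from GENCODE M21, promoters from RefSeq (GRCm38.p6), compared with Biopython 1.88. Alternatives were RLE and total-count scaling, no filter, a filter of 10 CPM in 3 libraries, DESeq2 1.42.0, limma-voom (limma 3.58.1), leaving out each library and other gene lengths.

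The members and lists were chosen with earlier results of these data known. Of 181 list entries 169 matched a row, 1 through a RefSeq synonym. Named were all 9 members, the highest and lowest member of each list, members that make up counts of 5 or fewer, and the 3 genes most like each member changed at least 2-fold. Gnai2, Gnao1, Gnb2, Gng8, G0s2, Mgll, Lipe and, beyond the highest of their lists, the receptors, anchoring proteins and CREB targets that rose were chosen after their values were seen. So were the split of G protein subunits by class and the order by longest transcript.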

Additional observations from a re-analysis of the deposited data

How the results depend on the processing

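No paired analysis was possible because the day 7 columns all carry the same replicate number. Prkaca, Prkacb, Prkar2a and Prkar2b kept direction and call under each alternative run. Adrb3 did too wherever it was tested, but with no count at day 0 its direction could not turn. The filter of 10 CPM removed Adrb1 and Adrb3. Prkar1a lost its call with no filter (-0.37, adjusted p = 0.057) and in 4 of 6 fits without 1 library, where those values ran from -0.40 (without day 0 replicate 1) to -0.35, with -0.38 without the first day 7 column, and from -0.44 to -0.26 over all 6. Gnas passed with DESeq2 (-0.26). The cause of these shifts was not tested. Total-count scaling moved the median of all genes from 0.02 to -0.21 and gave 2355 that rose and 4025 that fell (36.9% rising, against 51.3%). In the lists it gave 4 anchoring proteins that rose and 5 that fell, and 2 phosphodiesterases that rose. Of other G protein subunits 11 fell, and of other receptors 5. It also gave 2 adenylyl cyclases that fell and 1 receptor kinase or arrestin that rose. There were 0 PKA inhibitor or PKA-like kinase genes that rose and 2 that fell, 0 CREB family genes that rose and 2 CREB targets that fell. Leaving out the third day 7 column, chosen after seeing the data, also gave 2 CREB targets that fell; leaving out each library in turn, likewise chosen later, cost 14 of 65 list genes their call at least once, gave 8 others one and turned none. With the longest transcript and with no length scaling, the Prkaca share differed by 20.9 and 28.1 points and the regulatory to catalytic ratio by -0.368 and -0.221; the Prkar2a share (2.79 points) differed by 4.53 points with no length scaling and by 1.5 to 3.56 without 1 library. With no filter, Prkar1b had a log2 fold change of -0.26 (adjusted p = 0.86). Depth limits what can be said of Adrb1 and Prkar1b.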
